A study of Homo sapiens with 12 samples.

Results

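HCT116 cells, a human colorectal carcinoma line of epithelial character, were compared with and without the histone demethylase KDM3A in mock culture, which the labels describe as the normal state. One group was wild type (WT mock) and the other carried a KDM3A knockout (KO mock). RNA was enriched for polyadenylated transcripts and sequenced. Each of the 2 groups has 2 samples per the labels but a single deposited column of values, and how the samples relate to it is not stated. Of 26372 features in the tables, 12997 were at 1 FPKM or more in either mock column and were compared. FPKM is the number of fragments scaled by transcript length and by the mapped fragments of the library. The same 2 genotypes were also grown without serum (starved), or without serum for 24 h and then with fetal bovine serum added (refed). Those 4 groups are used here to see whether a mock difference was also present elsewhere. How the knockout was made, and whether it is 1 clone or several, is not given in the sources used here.

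KDM3A belongs to the Jumonji family of iron-dependent demethylases. It removes methyl groups from lysine 9 of histone H3, a mark that accompanies silent chromatin. It is itself a hypoxia-induced gene and a coactivator of several transcription factors.

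With 1 value per group there is no spread between replicates, so no difference below has a test. A gene is called higher or lower in KO where the log2 ratio of (FPKM + 1) reached 1 or -1, a 2-fold difference on that scale, which understates the difference of low genes. An exact 0 in an FPKM column can be a failed estimate, so such genes are said to be listed at 0 and no fold is given against them.

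The summed FPKM without short RNA features, such as small nucleolar RNA and microRNA, was 522057 in WT mock and 565695 in KO mock, and the read depth is unknown. Short RNA features are unstable in FPKM because of their length. SNORD81, a small nucleolar RNA, was listed at 593431 FPKM in WT mock, but at 0 in the other 5 groups. Of 259 short RNA features compared, 71 were higher and 59 lower in KO, and they are left out of what follows unless stated. Epithelial character was checked on 15 colon epithelial markers, of which 12 were at 1 FPKM or more in every group. Their presence does not identify the cell line. WT mock stood apart from the other 5 groups on endothelial markers, the genes of the cells that line blood vessels: 23 of 25 were at least 2-fold above each other group there. Their summed level was 332 FPKM in WT mock and 54.7 to 99.4 FPKM elsewhere. The colon epithelial markers and KDM3A were present in WT mock as well, and whether that column is from a mixed or mislabelled library was not tested. It enters every KO minus WT difference in mock culture given here.

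KDM3A was at 41.3 FPKM in WT mock and 3.15 FPKM in KO mock, or 7.64% of WT (log2 difference -3.35). Residual signal is therefore present in the knockout, and the columns do not show which exons it covers. In starved and refed cells KDM3A was at 17.8 and 19.8 FPKM in WT and at 3.01 and 3.59 FPKM in KO. The 3 KO values lay close together, and WT mock was the highest of the 3 WT values. No other H3K9 demethylase differed 2-fold: 0 of the 11 on the list were higher and 0 lower, with a median log2 difference of 0.07, the same as over all features and of the other sign when the columns were rescaled. The largest at 5 FPKM or more was that of KDM4C, at 6.76 FPKM in WT mock and 8.52 FPKM in KO mock (0.29). KDM3B, the closest relative of KDM3A, was at 10.8 and 10.4 FPKM. Among 13 methyltransferases of the same residue and HP1 proteins that bind it, 0 were called, and SETDB1 (0.30) and CBX3 (-0.29) were the outermost at that level.

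Over all 12997 features, 305 (2.35%) were higher and 433 (3.33%) lower in KO mock, and the median log2 difference was 0.07. Lower genes differed in their level in the other groups. Of the 374 lower genes that are not short RNA, 87 had a WT mock level at least 4-fold above that of each of the other 5 groups, and are described separately below as the genes high only in WT mock. With 8 short RNA features they make 95 features, 0.731% of those compared. A further 136 were 2- to 4-fold above each other group in WT mock. The 12651 genes that are neither short RNA nor high only in WT mock gave 234 higher (1.85%) and 287 lower (2.27%). At 5 FPKM or more in either mock column the majority turned, with 176 higher and 113 lower of 8630 genes. At 4-fold, 27 of the 12651 were higher and 43 lower. Counting only features 2-fold or more beyond each of the 3 WT columns, an alternative added after the data were seen, left 199 higher and 94 lower of all 12997.

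**Figure D1:**
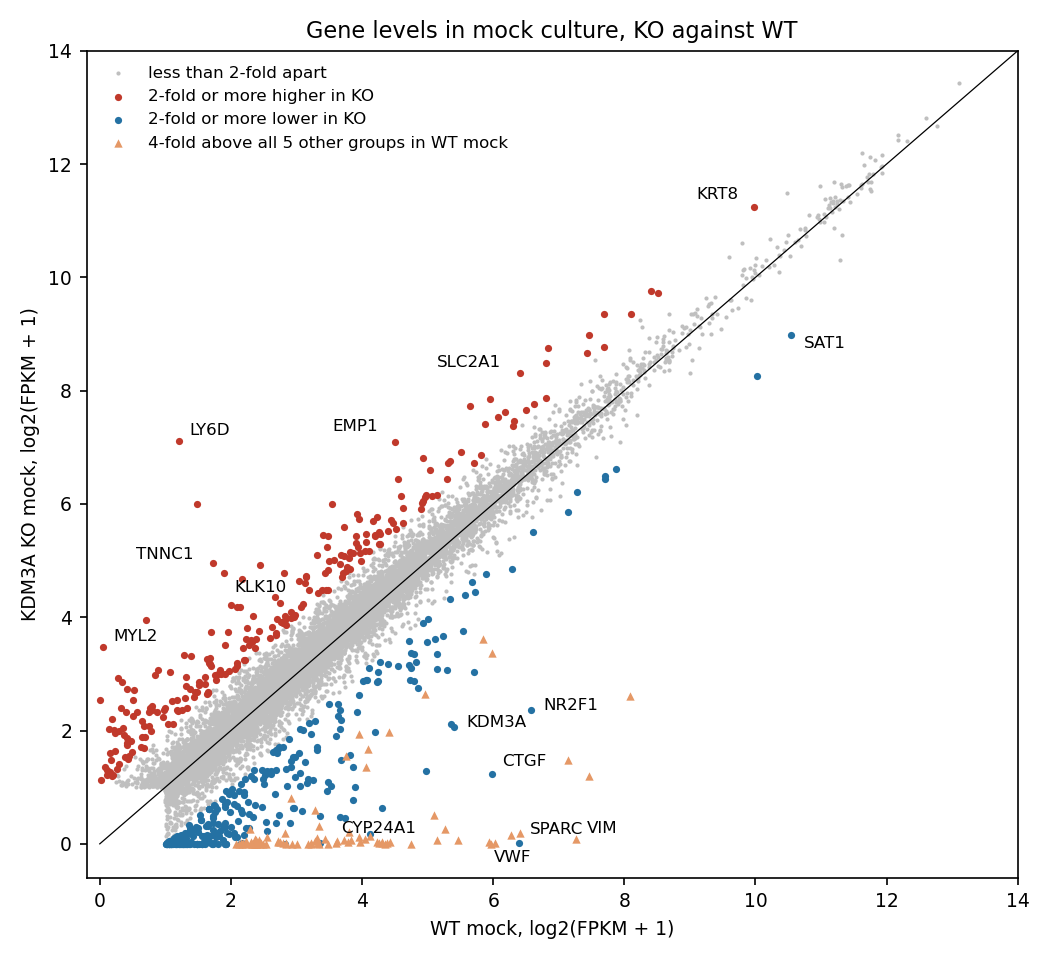
Level of each gene in WT mock (horizontal axis) and KO mock (vertical axis), both as log2(FPKM + 1), without short RNA features; each point is 1 gene and the line marks equal levels. Red and blue points are 2-fold or more higher or lower in KO, and orange triangles are the 87 genes high only in WT mock, most of which lie along the bottom of the plot, near 0 in KO.

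Genes of squamous and other stratified epithelia were among the largest differences upward. LY6D, a GPI-anchored protein of squamous cells, was at 1.30 FPKM in WT mock and 137 FPKM in KO mock (log2 difference 5.90). KLK5 and KLK10, secreted serine proteases of the kallikrein family, had levels of 0.630 and 2.71 FPKM in WT mock. Both were higher in KO mock, at 14.4 FPKM for KLK5 (3.24) and 26.3 FPKM for KLK10 (2.88). EMP1, an epithelial membrane protein, was at 21.7 FPKM in WT mock and 136 FPKM in KO mock (2.59). GRHL3, a transcription factor of epidermal barrier formation, was at 3.01 and 17.7 FPKM (2.22), and FGFBP1, a carrier of fibroblast growth factors, at 3.49 and 24.5 FPKM (2.51). In the other states LY6D ranged from 1.95 to 2.35 FPKM in WT and from 134 to 194 FPKM in KO. KLK5, KLK10, EMP1, GRHL3 and FGFBP1 were also 2-fold or more higher in KO in both starved and refed cells. So were 1.83% of the 12651 genes, and these genes were picked for their large mock differences. For FGFBP1 the level in refed WT, 21.6 FPKM, was close to that in KO mock.

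A list median below is over the members compared, and is followed by the median over all members where the filter at 1 FPKM left some out and that moved it. Members that passed the filter only through the column where they are high had to differ. Each count of called members is to be read beside 2.35% higher and 3.33% lower over all features. Of 22 squamous and kallikrein genes 13 were compared, and 7 were higher and 0 lower, with a median log2 difference of 1.24 (0.69 over all 22) beside 0.07 over all features. Keratins, the intermediate filament proteins of epithelia, gave 7 higher and 1 lower of 13 compared, with a median of 1.18 (0.82 over all 18). KRT8 and KRT18, the pair that forms the filament of simple epithelia, were among the most abundant genes that differed. KRT8 was at 1011 FPKM in WT mock and 2425 FPKM in KO mock (1.26), and KRT18 at 365 and 840 FPKM (1.20). Keratins of stratified epithelia were higher from lower levels: KRT16 was at 0.433 and 5.61 FPKM (2.20), KRT15 at 14.1 and 38.7 FPKM (1.40), and KRT14 at 0.172 and 2.87 FPKM (1.72). The 1 lower keratin was KRT7, a filament protein of glandular epithelia, at 25.2 and 7.89 FPKM (-1.56). KRT14, KRT16 and KRT17 are close in sequence, so reads may have been split between them. The 15 colon epithelial markers, which include KRT8, KRT18 and KRT19, summed to 2896 FPKM in WT mock and 5831 FPKM in KO mock. These keratins make up most of both sums, with KRT19 at 886 and 1554 FPKM (0.81). Of 12 markers compared 3 were higher and 0 lower, with 10 above 0 and 2 below (median 0.64, and 0.56 over all 15). SFN, the 14-3-3 protein of epithelial cells, was at 113 FPKM in WT mock and 431 FPKM in KO mock (1.92).

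Epithelial junction genes gave 4 higher and 0 lower of 25, and 22 of the 25 were above 0 (median 0.53, and 0.48 over all 27). The higher members included OVOL1, a repressor of mesenchymal genes, at 3.74 and 13.1 FPKM (1.57), the desmosome protein PKP3 at 23.8 and 60.1 FPKM (1.30), and the tight junction protein CLDN4 at 171 and 405 FPKM (1.24). The defining adhesion genes differed less: CDH1, which encodes E-cadherin, was at 19.6 and 29.4 FPKM (0.56), and EPCAM at 176 and 203 FPKM (0.21). Laminin subunits did not go one way in mock culture. LAMB3, a chain of the epithelial laminin-332, was at 14.5 and 52.1 FPKM (1.77). Its differences in starved and refed cells were 1.46 and 2.68. LAMB1, a chain of other laminins, was at 33.5 and 11.2 FPKM (-1.50). In starved and refed cells LAMB1 differed by -0.52 and -0.44, under the threshold, and its level in WT mock was above that of every other group.

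**Figure D2:**
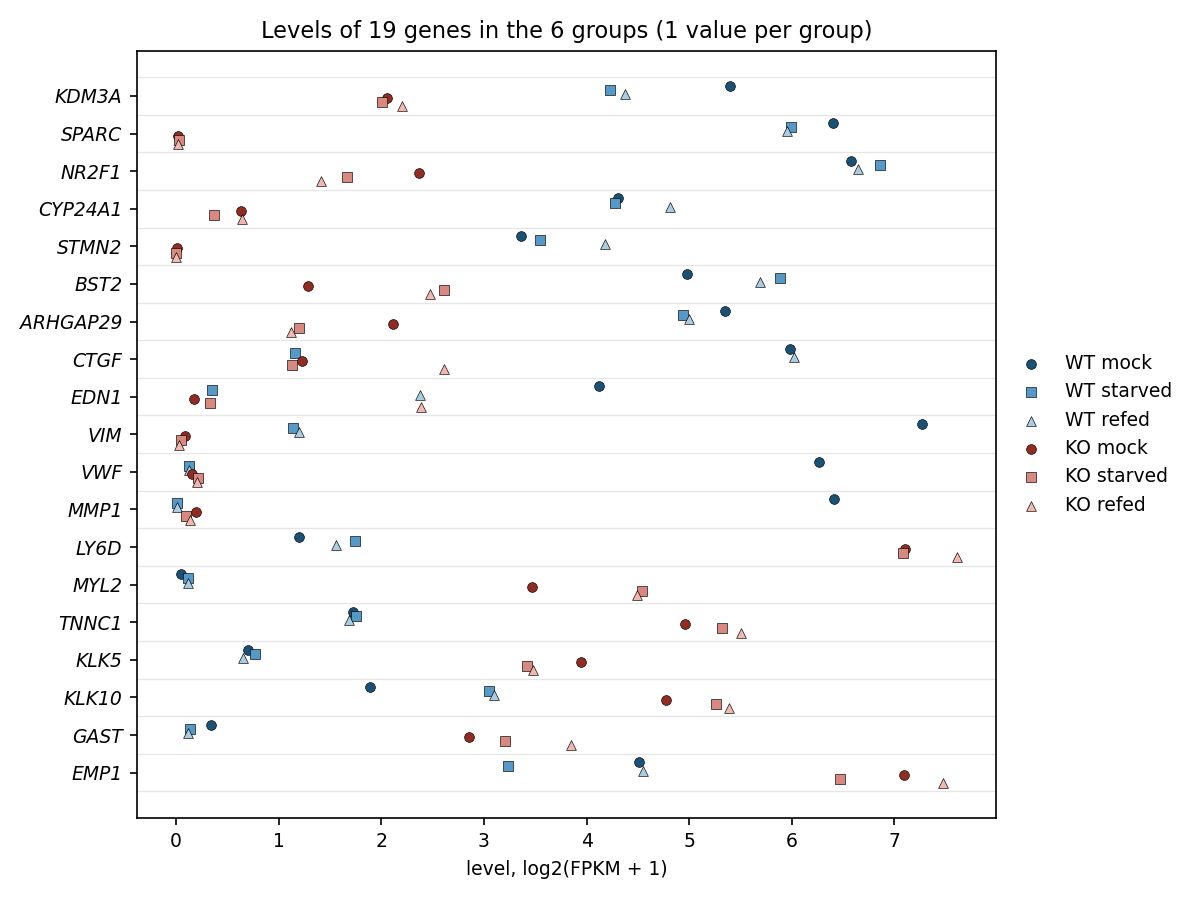
Levels of 19 genes in the 6 groups, as log2(FPKM + 1) on the horizontal axis; each symbol is the single value of 1 group, blue for WT and red for KO, with circles for mock, squares for starved and triangles for refed. From LY6D down, the 3 KO symbols lie to the right of the 3 WT symbols in each row, while for VIM, VWF and MMP1 the WT mock circle alone lies far to the right.

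A few of the higher genes are known from other tissues. MYL2, a myosin light chain, and TNNC1, a troponin, are parts of the contractile apparatus of heart and slow muscle. MYL2 was at 0.0319 FPKM in WT mock and 10.1 FPKM in KO mock (3.43), and TNNC1 at 2.31 and 30.0 FPKM (3.23). Of 6 striated muscle genes compared only these 2 were higher and 0 lower, and the median log2 difference was 0.13 (0 over all 20). TNNT1 and TNNI3 had 104 and 23.7 FPKM in WT mock against 109 and 21.1 FPKM in KO mock. GAST, the gene of the hormone gastrin, was at 0.265 and 6.22 FPKM (2.51). CD68, a lysosomal membrane protein used as a macrophage marker, was at 12.2 and 32.9 FPKM (1.37). It was the only 1 of 16 leukocyte markers at 1 FPKM or more in either mock column.

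Cholesterol synthesis converts acetyl-CoA to sterol by a chain of enzymes that the factor SREBP-2 controls together. Of its 20 enzymes, 6 were higher and 0 lower in KO mock, and 19 of 20 were above 0, with a median log2 difference of 0.83. IDI1, which isomerises the isoprene unit, was at 14.01 FPKM in WT mock and 42.3 FPKM in KO mock (1.53). MSMO1 and CYP51A1, which demethylate the sterol ring, had 13.5 and 12.6 FPKM in WT mock against 33.9 and 28.6 FPKM in KO mock (1.27 and 1.12). Among 13 genes of sterol sensing and uptake, 5 were higher and 0 lower (median 0.58, and 0.42 over all 15). INSIG1, which retains the SREBP complex in the endoplasmic reticulum, was at 12.2 and 47.4 FPKM (1.87), and SREBF2, which encodes SREBP-2, at 29.6 and 65.2 FPKM (1.11). Fatty acid synthesis gave 1 higher and 0 lower of 14 (median 0.38), a count near the share over all features. The called gene was FASN, the fatty acid synthase, at 39.7 and 107 FPKM (1.40).

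Of other metabolic genes, SLC2A1, the main glucose transporter of proliferating cells, was at 84.4 FPKM in WT mock and 317 FPKM in KO mock (1.90). It was the only 1 of 24 genes of glucose uptake and glycolysis called, and the median of the list, 0.09, was -0.02 after upper-quartile rescaling. Among 20 other hypoxia targets 0 were higher and 2 lower. CA9, a carbonic anhydrase induced by hypoxia, was at 17.3 and 2.92 FPKM (-2.22), while P4HA1, a collagen prolyl hydroxylase induced by the same factor, was at 85.9 and 167 FPKM (0.95), just under the threshold.

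Interferon-stimulated genes went in both directions. They are antiviral genes driven from an element called the ISRE, whose core was searched as GAAA, any 2 bases and GAAA. Of 26 compared, 4 were higher, 2 lower and 19 above 0, with a median log2 difference of 0.51 (0.34 over all 30). To show that genes on both sides carry the core, the promoters of 2 higher and 2 lower members follow. They run from 250 bases before to 50 bases after the start site in RefSeq (GRCh38.p14), 5′ to 3′ on the gene's own strand, with matches to the core in capitals. ISG15 lies at chr1:1013247-1013546 (plus strand), IFI6 at chr1:27672143-27672442 (minus), BST2 at chr19:17405581-17405880 (minus) and IFITM1 at chr11:313790-314089 (plus).
ISG15: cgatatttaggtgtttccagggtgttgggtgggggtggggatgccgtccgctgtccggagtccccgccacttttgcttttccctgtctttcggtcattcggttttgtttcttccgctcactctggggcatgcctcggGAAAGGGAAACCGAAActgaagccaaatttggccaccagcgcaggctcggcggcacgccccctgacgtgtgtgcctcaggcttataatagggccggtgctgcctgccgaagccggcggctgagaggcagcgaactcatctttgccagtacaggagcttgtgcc
IFI6: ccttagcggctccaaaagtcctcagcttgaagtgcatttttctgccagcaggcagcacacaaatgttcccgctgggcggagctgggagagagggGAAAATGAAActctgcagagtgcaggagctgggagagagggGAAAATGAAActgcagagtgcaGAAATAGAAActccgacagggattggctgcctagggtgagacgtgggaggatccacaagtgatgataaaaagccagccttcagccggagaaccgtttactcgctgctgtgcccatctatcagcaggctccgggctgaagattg
BST2: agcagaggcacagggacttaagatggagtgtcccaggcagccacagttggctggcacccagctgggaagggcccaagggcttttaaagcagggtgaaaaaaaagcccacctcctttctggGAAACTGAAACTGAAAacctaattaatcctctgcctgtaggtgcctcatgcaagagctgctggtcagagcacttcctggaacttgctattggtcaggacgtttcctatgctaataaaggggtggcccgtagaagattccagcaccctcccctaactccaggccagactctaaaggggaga
IFITM1: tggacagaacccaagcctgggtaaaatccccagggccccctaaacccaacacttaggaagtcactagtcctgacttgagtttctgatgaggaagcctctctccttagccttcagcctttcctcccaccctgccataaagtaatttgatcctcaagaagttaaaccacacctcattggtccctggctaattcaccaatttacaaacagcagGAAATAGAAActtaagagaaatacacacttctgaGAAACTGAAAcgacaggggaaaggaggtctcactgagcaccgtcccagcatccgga
On either strand, the core was found in 14 of the 20 interferon-stimulated promoters in the table (70.0%) and in 3.65% of all 27305 promoters. ISG15, BST2 and IFITM1 had 2 matches each, overlapping in ISG15 and BST2, and IFI6 had 3, and a match is a description of letters and not a site of binding.

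ISG15, a ubiquitin-like modifier, was at 338 FPKM in WT mock and 867 FPKM in KO mock (1.36). IFI6, a mitochondrial inhibitor of apoptosis, was at 176 and 507 FPKM (1.52), and IFI27 at 66.2 and 184 FPKM (1.46). In the other direction BST2, which tethers budding viruses to the cell surface and is also called tetherin, was at 30.5 FPKM in WT mock and 1.43 FPKM in KO mock (-3.70). IFITM1, which blocks viral entry, was at 51.3 and 7.16 FPKM (-2.68). Its neighbour and close paralog IFITM3 was at 410 and 653 FPKM (0.67), and reads may have been split between the family's members. ISG15, IFI6, IFI27, BST2, IFITM1 and IFITM3 each differed to the same side in starved and refed cells, where BST2 ranged from 50.8 to 58.3 FPKM in WT and from 4.55 to 5.13 FPKM in KO.

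Genes of growth signalling were called in small numbers. Immediate early genes, which serum and stress induce within minutes, gave 4 higher and 0 lower of 21 (median 0.57, and 0.51 over all 22). KLF4 and NR4A1, a zinc finger factor and an orphan nuclear receptor, had 9.61 and 6.02 FPKM in WT mock against 42.6 and 26.6 FPKM in KO mock (2.04 and 1.97). EGR1 and JUN of the same list had 23.5 and 17.5 FPKM in WT mock against 13.3 and 9.58 FPKM in KO mock (-0.77 and -0.80), which is under 2-fold. Wnt targets and feedback inhibitors gave 3 higher and 0 lower of 10 compared (median 0.49, and 0.09 over all 17), and all 3 act against the pathway. NOTUM, which inactivates Wnt proteins, was at 9.99 and 36.9 FPKM (1.79), DKK1, which blocks the co-receptor, at 205 and 656 FPKM (1.67), and ZNRF3, which removes the receptor, at 2.48 and 6.95 FPKM (1.19). AXIN2, a widely used readout of the pathway, was at 2.24 and 2.49 FPKM (0.11). ID2 and SMAD7, targets of BMP and TGF-beta receptors, had 57.9 and 2.22 FPKM in WT mock against 170 and 8.06 FPKM in KO mock (1.53 and 1.49). 

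**Figure D3:**
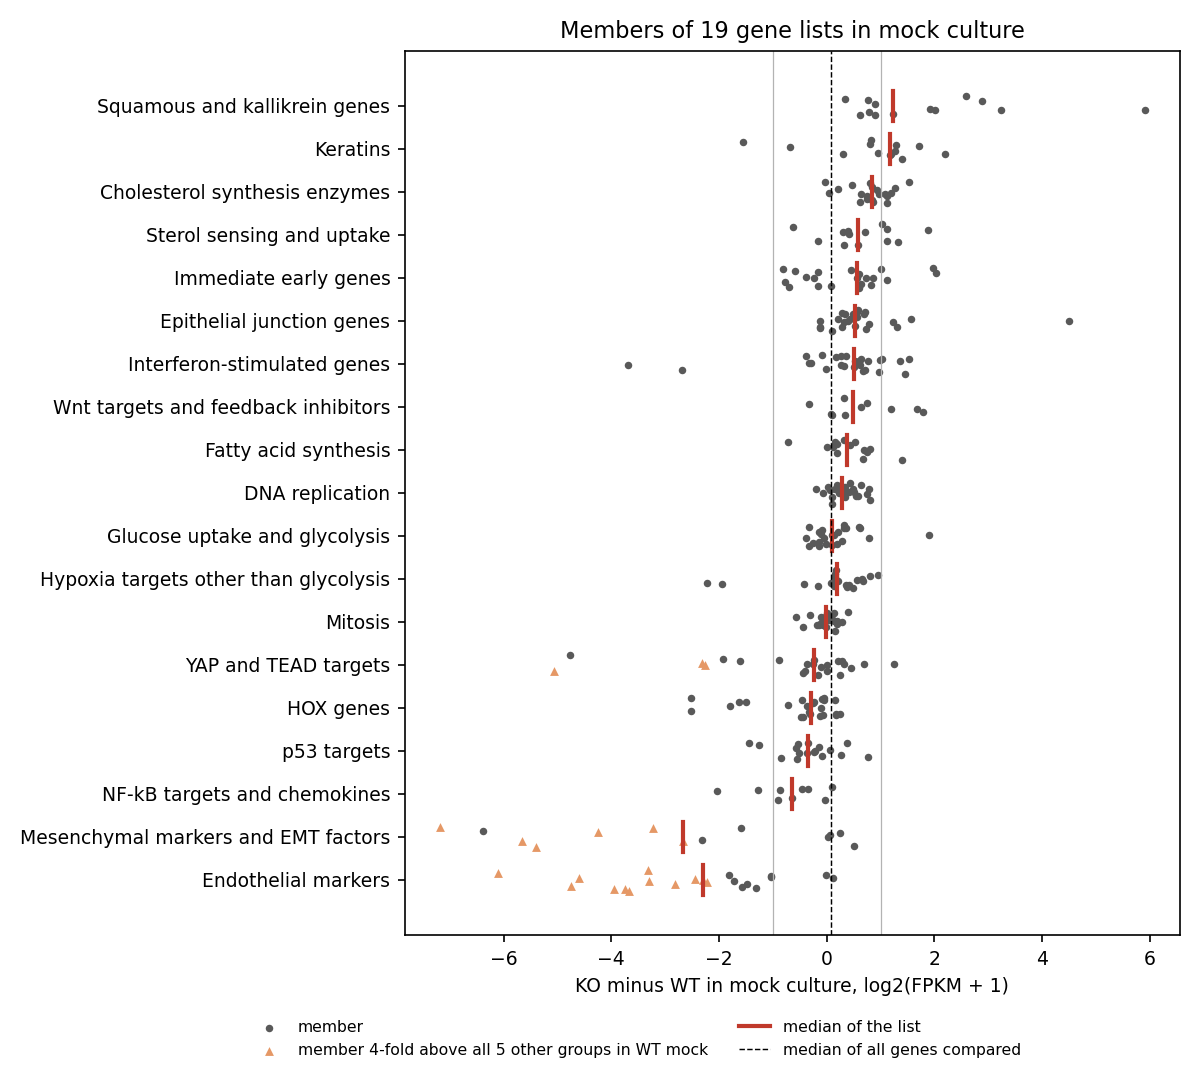
Log2 difference (KO minus WT, mock culture, of FPKM + 1) of the compared members of 19 gene lists; each point is 1 gene, orange triangles are members high only in WT mock, red bars are list medians, the dashed line is the median of all features and grey lines mark 2-fold. Squamous genes, keratins and cholesterol enzymes lie to the right, with medians of 1.24, 1.18 and 0.83, and the mesenchymal and endothelial lists to the left, with medians of -2.67 and -2.29.

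The lower genes that did not depend on WT mock alone were led by SPARC, a matrix-binding glycoprotein. It was at 83.3 FPKM in WT mock and 0.0130 FPKM in KO mock (-6.38), and at 60.8 to 62.9 FPKM against at most 0.0193 FPKM in the other states. NR2F1, an orphan nuclear receptor of neural development also called COUP-TFI, was at 94.6 and 4.17 FPKM (-4.21). CYP24A1, which degrades active vitamin D, was at 18.9 and 0.554 FPKM (-3.67). STMN2, a microtubule regulator of neurons, was at 9.29 and 0.00712 FPKM (-3.35), ARHGAP29, a GTPase activator for RhoA, at 39.8 and 3.33 FPKM (-3.23), and GPR15, a chemoattractant receptor, at 11.6 and 0.394 FPKM (-3.18). Each of these was also lower in starved and in refed cells, with log2 differences of -2.61 or below for all but STMN2. STMN2 was at 10.7 and 17.2 FPKM in starved and refed WT and listed at 0 in KO in both. Neuronal markers as a list gave 0 higher and 4 lower of 9 compared (median -0.53, and -0.28 over all 16), of which 1 was high only in WT mock. Among abundant genes, SAT1, which acetylates polyamines for export, was at 1490.2 FPKM in WT mock and 503 FPKM in KO mock (-1.56), and GDF15, a stress-induced cytokine, at 233 and 97.3 FPKM (-1.25).

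Nuclear receptors gave 1 higher and 3 lower of 19, beside 2.35% higher and 3.33% lower over all features. NR2F2, the paralog of NR2F1, was at 8.94 and 2.17 FPKM (-1.65), and PPARD, a fatty acid sensor, was the higher member at 14.6 and 34.3 FPKM (1.18). Of 17 p53 targets, 0 were higher, 2 were lower and 13 were below 0 (median -0.34, and -0.36 over all 18): GDF15, and BAX, which permeabilises mitochondria in apoptosis, at 76.7 and 27.8 FPKM (-1.43). MDM2 and CDKN1A, both direct targets, had 8.58 and 99.1 FPKM in WT mock against 7.15 and 68.3 FPKM in KO mock (-0.23 and -0.53). The downward median of the p53 list was seen in mock culture only, and was 0.07 in starved and 0.14 in refed cells. CDKN1A differed by 0.01 and 0.27 there. GDF15 (-1.89 and -1.69) and BAX (-1.17 and -0.87) were lower in those states too. NF-kB targets and chemokines gave 0 higher and 2 lower of 9 compared (median -0.65, and -0.32 over all 16 in the tables). CXCL8, the neutrophil chemoattractant also called interleukin-8, was at 7.99 and 1.20 FPKM (-2.03), and its differences were -2.36 and -3.80 in starved and refed cells.

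Some neighbouring genes were called together. Runs of 3 or more compared genes that follow each other in the RefSeq gene order (GRCh38.p14) and were called in 1 direction numbered 5. How many runs the share of called genes alone would give was not tested. HOX genes set position along the body axis and are ordered along the chromosome. Of 24 HOX genes compared 0 were higher and 5 lower, and these 5 all lie in the HOXB cluster. HOXB4 was at 6.48 FPKM in WT mock and 0.296 FPKM in KO mock (-2.53), HOXB8 at 9.99 and 0.912 FPKM (-2.52), and HOXB3 at 7.28 and 1.38 FPKM (-1.80). HOXB5 and HOXB6 had differences of -1.63 and -1.49. Within the cluster HOXB7, between HOXB6 and HOXB8, was at 24.95 and 18.1 FPKM (-0.44), and HOXB13, at the far end, at 4.79 and 5.51 FPKM (0.17). HOXB-AS3, called lower as well (-1.03), lies antisense among HOXB5 and HOXB6. No source used here says that strand was kept in counting, so reads of these overlapping genes cannot be told apart.

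In the kallikrein cluster 4 of 8 compared genes were higher and 0 lower. KLK6 was at 13.0 and 32.0 FPKM (1.24) and KLK11 at 0.134 and 3.60 FPKM (2.02), beside KLK5 and KLK10 above. KLK7 and KLK8, which lie between KLK6 and KLK10, had 8.14 and 27.8 FPKM in WT mock against 14.8 and 52.4 FPKM in KO mock (0.79 and 0.89), under the threshold. A run of lower genes held 4 genes of the natural killer cell receptor complex, KLRK1, KLRC4, KLRC3 and KLRC2, led by KLRK1 at 6.81 and 0.545 FPKM (-2.34). The KLRC genes are near-identical copies, and their split is uncertain. CLDN9, TNFRSF12A and HCFC1R1 made up a run of higher genes. A run of GIMAP8, GIMAP7 and GIMAP6 was lower from 1.08, 1.04 and 1.78 FPKM in WT mock to a listed 0 in KO mock, and was at 0.0522 FPKM or less in the other 4 groups. Any gene compared that is listed at 0 in KO mock is called lower, because the filter requires 1 FPKM in WT mock. The calls of this run, which is counted with the others, therefore follow from the filter.

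**Figure D4:**
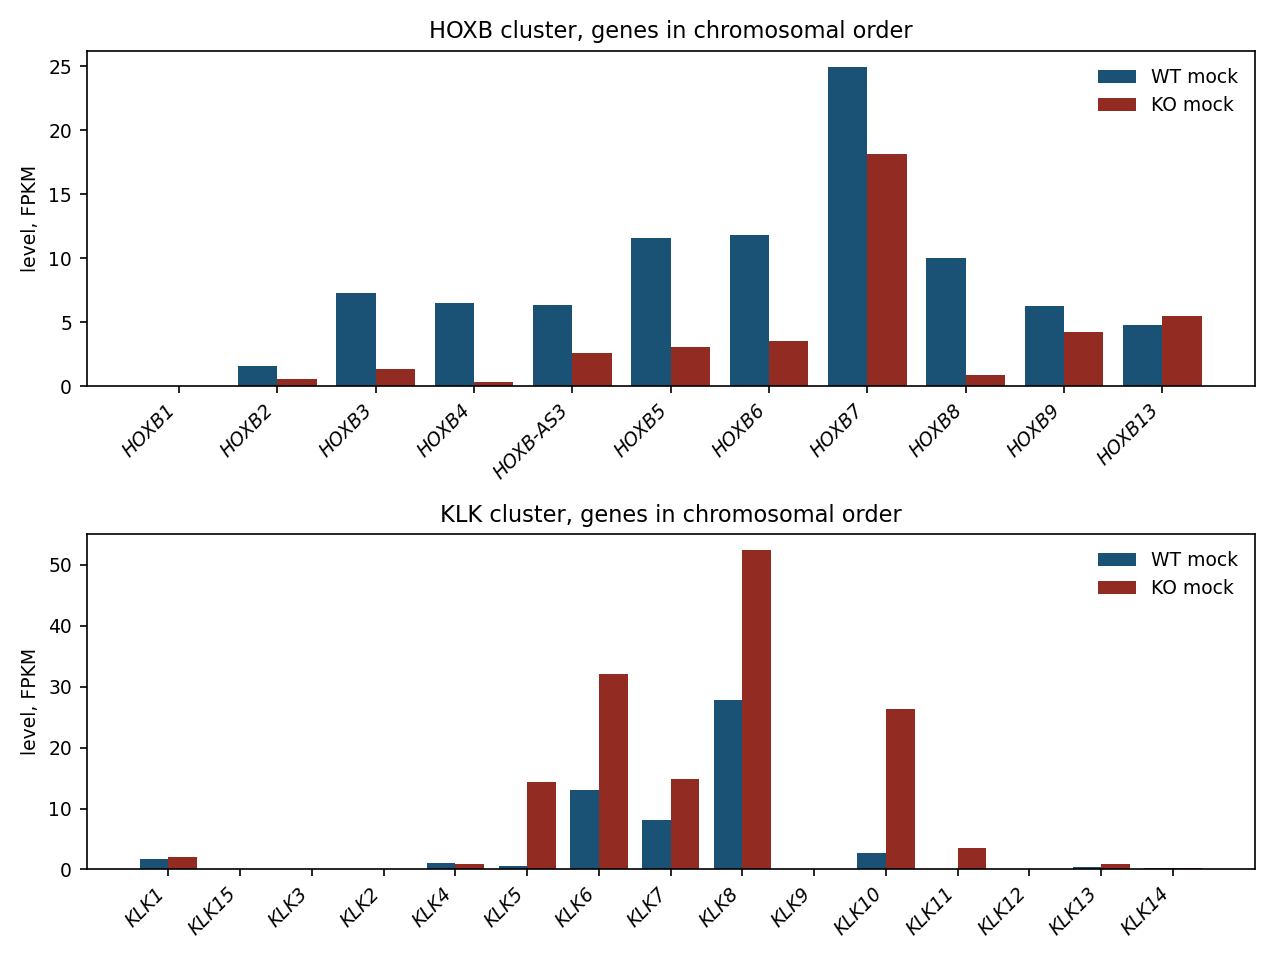
Level in FPKM (vertical axes, from 0) of the genes of the HOXB cluster (top) and the kallikrein cluster (bottom) in chromosomal order, with 1 bar for WT mock (blue) and 1 for KO mock (red) per gene. HOXB3 to HOXB6 and HOXB8 are lower in KO while HOXB7 is at 24.95 and 18.1 FPKM, and KLK5, KLK6, KLK10 and KLK11 are 2-fold or more higher.

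Differences upward in mock culture were mostly present in the other culture states, and those downward mostly were not. Of the 234 higher genes, 162 (69.2%) were also 2-fold higher in both starved and refed cells, where 1.83% of the 12651 genes were. A further 39 were 2-fold higher in 1 of these states and 33 in neither. Of the 287 lower genes, 79 (27.5%) were also 2-fold lower in both, where 0.775% of the 12651 genes were, 23 in 1 and 185 in neither. The 3 comparisons of KO with WT use separate columns. Rescaling the columns moved these counts: by median ratios 110 genes were higher and 97 lower in all 3 states, and by upper quartiles 107 and 99, so that higher genes went from 67.2% of those called in all 3 states to 53.1% and 51.9%. With a pseudocount of 0.1 FPKM, 258 higher and 155 lower features of all 12997 were called in all 3 states, in place of 171 and 81.

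Some lower genes had nearly the same level in both genotypes once serum was withdrawn or given back. EDN1, the vasoconstrictor endothelin-1 and a product of endothelial cells, was at 16.5 FPKM in WT mock and 0.131 FPKM in KO mock (-3.95). It was at 0.274 and 0.258 FPKM in starved WT and KO and at 4.18 and 4.22 FPKM in refed WT and KO. ESAM, an adhesion protein of endothelium, was at 14.4 and 5.19 FPKM in mock culture (-1.32) and between 3.69 and 4.33 FPKM elsewhere. PXDN, a matrix peroxidase, was at 17.9 and 6.37 FPKM (-1.36) and between 5.67 and 6.41 FPKM elsewhere. PLS3, an actin-bundling protein, was at 58.4 and 26.2 FPKM (-1.13) and between 15.7 and 19.5 FPKM elsewhere. In each of these WT mock was the highest of the 6 values. WT mock was the highest value for some abundant genes too. TMSB4X, which sequesters actin monomers, was at 1041 FPKM in WT mock and 306 FPKM in KO mock. It stayed lower in KO in the other states, under the threshold. It was at 500 and 314 FPKM in starved WT and KO and at 524 and 355 FPKM in refed WT and KO (-0.67 and -0.56). MYH9, the heavy chain of non-muscle myosin, was at 96.2 and 44.6 FPKM and at 39.4 to 65.3 FPKM elsewhere.

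**Figure D5:**
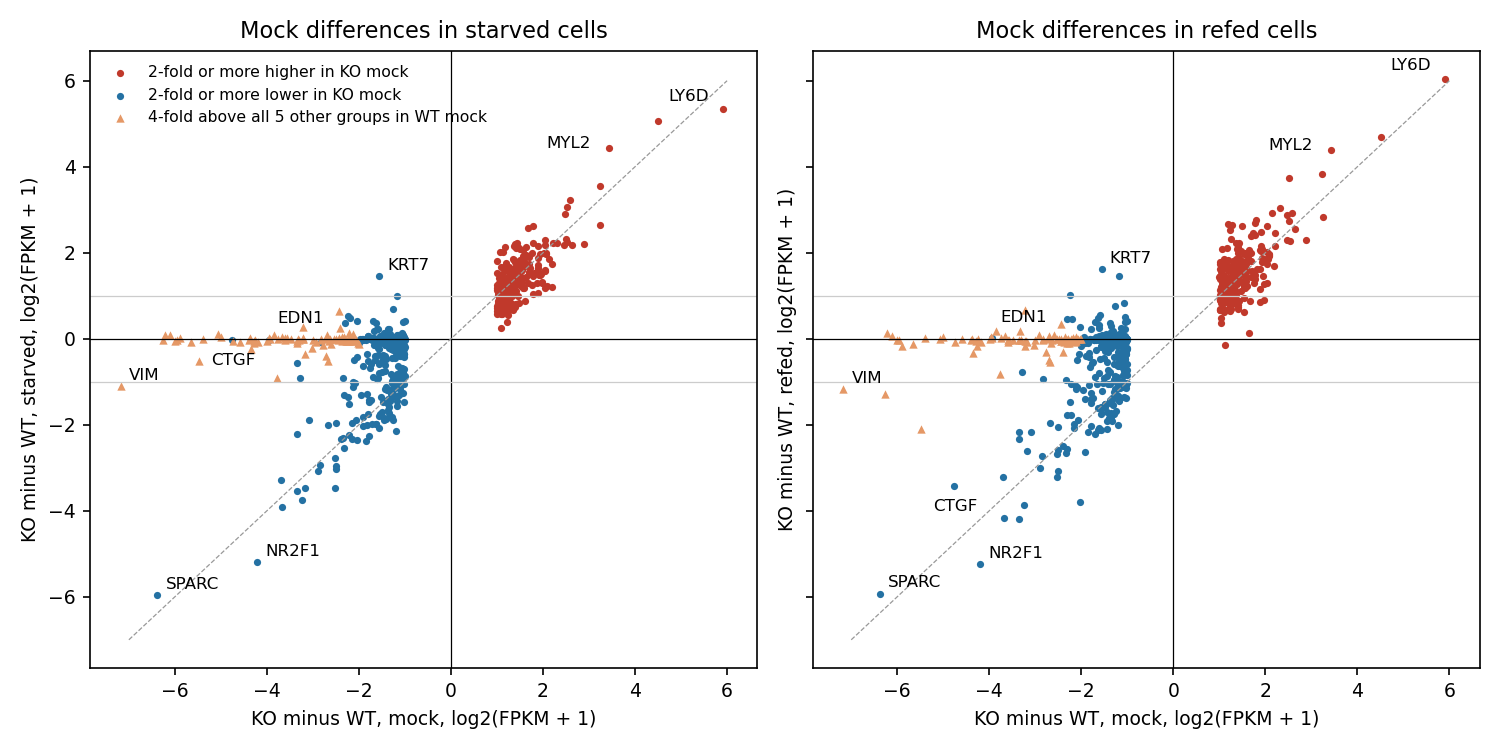
Log2 difference (KO minus WT, of FPKM + 1) in starved (left) and refed (right) cells against that in mock culture, for genes that differed 2-fold or more in mock culture; each point is 1 gene, the dashed line marks equal differences and grey lines mark 2-fold. Higher genes (red) lie along the dashed line, while the 87 genes high only in WT mock (orange triangles) and many other lower genes (blue) lie near 0 in both.

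The 87 genes high only in WT mock were at 3.20 to 270.3 FPKM there, with a median of 9.06 FPKM. Their median in KO mock was 0.0262 FPKM, and 76 of them were below 1 FPKM in KO mock and 72 in all 5 other groups. The same rule applied to each other group gave 0 genes in WT starved, KO mock and KO starved, 3 in WT refed and 2 in KO refed. Their median log2 difference between the genotypes in mock culture, -3.01, follows from the rule, which requires WT mock to be 4-fold above KO mock. In both starved and refed cells the median was -0.02. Most of the 87 were below 1 FPKM there, where adding 1 FPKM pulls a ratio toward 0. Only 1 of the 87, VIM, was also 2-fold lower in both. With a pseudocount of 0.1 FPKM in place of 1, 204 features in place of 95 met the rule.

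Vessel and matrix genes led this set. VIM, the intermediate filament protein of mesenchymal and endothelial cells, was at 153 FPKM in WT mock and 0.0640 FPKM in KO mock, and at 1.21 and 1.29 FPKM in starved and refed WT. VWF, the clotting factor stored by endothelium, was at 75.9 FPKM in WT mock, against 0.0899 to 0.159 FPKM in the other 5 groups. MMP1, an interstitial collagenase, was at 84.3 FPKM against 0.00657 to 0.143 FPKM. FN1, fibronectin, was at 140 FPKM against 0.833 to 1.78 FPKM. The proteoglycan BGN was at 64.0 FPKM in WT mock, the matrix proteins EFEMP1 and IGFBP7 at 61.2 and 60.3 FPKM, and the gelatinase MMP2 at 43.1 FPKM, all at 0.132 FPKM or less elsewhere. CDH5, the cadherin of endothelial junctions, was at 25.8 FPKM in WT mock, was listed at 0 in KO mock and KO starved, and was at most 0.0622 FPKM in the rest.

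On the endothelial list, 19 of 21 compared members were lower in KO mock and 0 higher (median -2.29, and -1.81 over all 25), 12 of them high only in WT mock. In WT mock 21 of the 25 markers were at 1 FPKM or more, against 4 or 5 in each other group. The markers PECAM1, ENG and TIE1 were at 15.5, 33.2 and 12.8 FPKM in WT mock but at 0.683 FPKM or less in every other group. EGFL7 and NOS3, on the same list, had 77.2 and 4.01 FPKM in WT mock against 84.3 and 3.96 FPKM in KO mock (0.12 and -0.01). Without the 12, the remaining 9 had a median of -1.32 in mock culture and of 0.06 and 0.18 in starved and refed cells. Mesenchymal markers and EMT factors gave 9 lower and 0 higher of 13 compared (median -2.67, and -0.68 over all 21), of which 6 were high only in WT mock. The remaining 7 had a median of 0.02. The fibroblast and pericyte list summed to 86.9 FPKM in WT mock and to 35.5 to 88.4 FPKM elsewhere, and the leukocyte list to 14.1 and 6.37 to 34.7 FPKM. The part of endothelial or other cells in the WT mock column was not tested. In such bulk RNA, fewer cells of a type and less RNA per cell cannot be told apart.

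Targets of YAP and TEAD, the coactivator and DNA-binding factors at the end of the Hippo pathway, sit on both sides of this divide. Of 23 compared, 1 was higher and 6 lower in KO mock (median -0.24), and 3 of the 6 were high only in WT mock. The 20 others had a median of -0.14 in mock culture and of 0.26 and 0.17 in starved and refed cells. TEAD factors bind the core GGAATG. The promoters of CTGF, ANKRD1 and AMOTL2, 3 targets with unlike patterns, are shown with matches in capitals, on the same terms as above. CTGF lies at chr6:131951323-131951622, ANKRD1 at chr10:90921038-90921337 and AMOTL2 at chr3:134375368-134375667, all on the minus strand.
CTGF: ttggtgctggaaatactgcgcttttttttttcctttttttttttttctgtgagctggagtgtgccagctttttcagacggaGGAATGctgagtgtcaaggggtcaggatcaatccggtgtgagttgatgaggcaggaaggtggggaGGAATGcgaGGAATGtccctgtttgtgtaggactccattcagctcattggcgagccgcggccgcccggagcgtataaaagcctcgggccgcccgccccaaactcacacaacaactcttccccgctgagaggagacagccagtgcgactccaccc
ANKRD1: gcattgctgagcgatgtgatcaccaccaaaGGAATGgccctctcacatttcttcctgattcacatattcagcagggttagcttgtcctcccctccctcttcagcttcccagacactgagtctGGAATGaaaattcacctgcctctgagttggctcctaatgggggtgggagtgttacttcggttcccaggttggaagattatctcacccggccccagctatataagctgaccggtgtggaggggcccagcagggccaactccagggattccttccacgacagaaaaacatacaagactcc
AMOTL2: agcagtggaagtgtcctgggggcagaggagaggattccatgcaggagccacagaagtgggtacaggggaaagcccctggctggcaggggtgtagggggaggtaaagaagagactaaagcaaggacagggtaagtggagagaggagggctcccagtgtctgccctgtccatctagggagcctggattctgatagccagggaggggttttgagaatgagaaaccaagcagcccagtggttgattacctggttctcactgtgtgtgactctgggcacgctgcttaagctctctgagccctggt
GGAATG was found on the strand shown 3 times in CTGF and 2 times in ANKRD1, and on neither strand in AMOTL2. On either strand it was in 6 of the 17 YAP and TEAD targets in the table (35.3%) and in 14.05% of all 27305 promoters. The 6 were CTGF, ANKRD1, LATS2, TGFB2, PTPN14 and NUAK2. The promoters shown were picked for their unlike patterns, and whether a match goes with the direction of a difference was not tested. No match says only that these letters are not in this window.

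CTGF, a secreted matrix protein, was at 62.3 FPKM in WT mock and 1.34 FPKM in KO mock (-4.76). It was at 1.24 and 1.20 FPKM in starved WT and KO and at 64.0 and 5.09 FPKM in refed WT and KO (-0.03 and -3.41), so that both WT columns grown with serum were high. ANKRD1, a nuclear ankyrin repeat protein, was at 34.2 FPKM in WT mock, 0.0528 FPKM in KO mock and at most 0.169 FPKM elsewhere. CRIM1, a membrane protein that binds BMPs, was at 30.0 and 5.22 FPKM (-2.32) and at 5.00 to 5.39 FPKM in the other 4 groups. CYR61, the closest relative of CTGF, was at 27.8 and 14.7 FPKM (-0.88), under the threshold. AMOTL2, which binds YAP in the cytoplasm, was the higher member at 3.998 and 10.9 FPKM (1.25), and was higher in starved and refed cells by 1.61 and 0.70. The factors themselves were called only for WWTR1, which encodes the YAP paralog TAZ: it was at 22.4 and 7.77 FPKM (-1.42), with differences of -1.13 and -1.06 in starved and refed cells. YAP1 was at 10.2 and 15.1 FPKM (0.52). Of 19 genes of the Hippo cascade and its cofactors 0 were higher and 1 lower, or 2 with FRMD6 when the columns were rescaled. The endothelial markers were high in the same WT mock column as CTGF, ANKRD1 and CRIM1, and their part in these values was not tested.

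Called genes made up 2.35% (higher) and 3.33% (lower) of all features, so that a list of this size holds few or none at the background share. There were 0 called of 26 DNA replication genes, 0 of 23 mitosis genes, 0 of 25 respiratory chain genes, 0 of 20 large-subunit ribosomal protein genes and 0 of 19 ribosome biogenesis genes, which is near that share. Of these DNA replication had the highest median, 0.29, with 24 of 26 above 0. CDC6 and MCM2, which license origins, had 10.2 and 15.5 FPKM in WT mock against 18.7 and 27.3 FPKM in KO mock (0.81 and 0.78). Mitosis genes had a median of -0.01 in mock culture and of 0.53 and 0.37 in starved and refed cells, so that the mock value was the lowest of the 3.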

How the data were processed

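Polyadenylated RNA of HCT116 cells was sequenced, per the labels' protocols. The submitters' processing notes name FastQC, cutadapt, TopHat2 and the build hg19, with no versions or order. The authors deposited FPKM values, already scaled by transcript length and library, in 1 column per group. The program that computed FPKM, its annotation and its use of strand are not given in the sources used here. The labels do not say whether the 2 samples of a group came from separate cultures.

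From these FPKM values log2 ratios of (FPKM + 1) were computed with Python 3.11.15, numpy 2.4.6 and pandas 2.3.3 over features at 1 FPKM or more in either mock column. Low values did not fall on a common step (of 2784 genes below 0.15 FPKM in both mock columns, the commonest ratio held 1.29%), so reads were not recovered and no counting interval is given. Because each group has 1 value, there is no test and no p-value.

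Symbols were matched to RefSeq (GRCh38.p14) for gene order, 25208 of 26372, and promoters. A promoter was found for 79.4% of the genes compared, 67.1% of those higher, 68.6% of those lower and 74.7% of those high only in WT mock. A check of promoter base composition is void, because fewer than 80% of each set have one.

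The comparison, its members and all 49 gene lists were chosen with earlier results of these data known. Named genes were the 15 highest and lowest ratios at 5 FPKM or more, the 8 most abundant in each direction, the 12 clearest genes high only in WT mock, the 4 largest of each list, and genes whose other states were closest to 0 or opposite. Other genes named were chosen after their values were seen, among them CDH1, EPCAM, KDM3B, CYR61, AMOTL2, EGR1, JUN, MDM2 and the members of neighbouring runs. Alternatives were other pseudocounts, filters and scalings, and leaving out short RNA features or the genes high only in WT mock. Some genes are not reported here.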

Additional observations from a re-analysis of the deposited data

Results flagged for a closer look

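KRT7, a keratin of glandular epithelia, differed one way in mock culture and the other way in both other states. It was at 25.2 FPKM in WT mock and 7.89 FPKM in KO mock (log2 difference -1.56). In starved cells it was at 4.91 FPKM in WT and 15.2 FPKM in KO (1.46), and in refed cells at 4.91 FPKM in WT and 17.1 FPKM in KO (1.61). It was the only 1 of the 287 lower genes that was 2-fold higher in KO in both other states. The difference between the states was not tested, since each group has 1 value. WT mock was the highest of the 6 values, and endothelial markers were high in that column too. Their part in the value was not tested.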

How the results depend on the processing

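No paired analysis was possible because each group has a single column that carries no replicate number, and for the same reason no replicate could be left out. With short RNA features and genes high only in WT mock kept, 305 features were higher and 433 lower, and 171 and 81 of these also differed 2-fold in starved and refed cells. With a pseudocount of 0.1 FPKM those last counts became 258 and 155, and 204 features were high only in WT mock in place of 95. A filter of 5 FPKM left 203 lower features. Upper-quartile rescaling left 113 of the higher features also 2-fold higher in starved and refed cells and turned the median of all features from 0.074 to -0.024. At 2-fold in place of 4-fold, 239 features were high only in WT mock. In alternatives added after the data were seen, 199 features were at least 2-fold above each of the 3 WT columns in KO mock and 94 at least 2-fold below each of them, and 194 lower features were left without those 2-fold above each other group in WT mock. Under either rescaling 5 cholesterol synthesis enzymes, 4 sterol sensing genes, 3 immediate early genes and 3 interferon-stimulated genes were called higher. Of 225 named genes, 217 kept their side of the threshold under either rescaling, 7 dropped under it and 1 passed it. No called gene among them changed direction, while of those under the threshold TNNT1 changed sign under both rescalings and KDM1A, NFKB2 and ENO2 under upper-quartile rescaling. Of 46 lists with at least 4 genes, 6 changed the sign of their median under at least 1 of the 2 rescalings, all with medians between 0.01 and 0.09. The depth of the libraries is unknown, so low values carry an error that cannot be given here.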

Other observations

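The counts of these further gene groups stand beside 2.35% higher and 3.33% lower over all features. EGF receptor ligands and receptors gave 0 higher and 1 lower of 9, and the lower member was below 5 FPKM in both mock columns. Of the 9, 7 were above 0 and 2 below. Under the threshold were AREG, the ligand amphiregulin, at 98.6 FPKM in WT mock and 184 FPKM in KO mock (0.89), and TGFA at 15.2 and 28.1 FPKM (0.84). ERK feedback genes gave 1 higher and 1 lower of 16: EPHA2, a receptor tyrosine kinase, was at 28.9 and 59.3 FPKM (1.01, under the threshold when the columns were rescaled) and SPRY4, a Sprouty inhibitor, at 25.3 and 11.01 FPKM (-1.13). Metallothioneins and NRF2 targets gave 0 higher and 2 lower of 13, led by MT1X, a metal-binding protein, at 154 and 72.8 FPKM (-1.07). In refed cells MT1X was at 67.6 FPKM in WT and 121 FPKM in KO (0.83). Heat shock and chaperone genes gave 0 higher and 1 lower of 15, HSPH1, a co-chaperone of the HSP110 family, at 15.2 and 6.36 FPKM (-1.14).

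Imprinted genes gave 0 higher and 3 lower of 14, and 1 of the 3 was high only in WT mock. CDKN1C, an imprinted inhibitor of cyclin-dependent kinases, was at 17.2 FPKM in WT mock and 25.5 FPKM in KO mock (0.55). In refed cells it was at 5.16 FPKM in WT and 61.9 FPKM in KO (3.35). Intestinal differentiation genes were mostly below 1 FPKM in both mock columns, with 4 of 24 compared. Of these 2 were higher, GAST among them, and 0 lower (median 0.64, and 0 over all 24). The factor CDX2 was at 7.51 and 7.10 FPKM (-0.07).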
